A study of Mus musculus with 6 samples.

Results

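The 9 genes described here make or mark myelin, the lipid-rich sheath that oligodendrocytes wrap around axons: Mbp, Cnp, Mag, Cldn11, Tspan2, Ugt8a, Fa2h, Myrf and Enpp6. They were chosen by symbol, and each was found at 1 locus of the 23793 in the deposited table. The tissue was whole cerebellum of mice on the day of birth (postnatal day 0), measured by RNA sequencing. The 3 control libraries carried Zeb2 f/+ (1 floxed and 1 wild-type allele) with hGFAP-cre, and the 3 conditional knockout (cKO) libraries carried Zeb2 f/f (only floxed alleles) with the same hGFAP-cre. All 6 libraries therefore carried Cre, which is driven by the human GFAP promoter and acts in neural progenitors and glia, and cells outside that lineage keep Zeb2. Whether the libraries are of different animals is not in the labels, and every p-value below measures only their spread. Values are FPKM, fragments per kilobase of transcript and per 1e6 mapped fragments, which allows levels to be compared between genes per length.

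Oligodendrocytes arise from precursors that express Pdgfra, Sox10, Olig1 and Olig2. As a precursor leaves the cell cycle it first expresses genes such as Gpr17, Enpp6 and Bcas1, then the transcription factor Myrf, and with Myrf the proteins and lipid enzymes of the sheath. In the mouse cerebellum most myelin is laid down after birth. Zeb2, also called Sip1, is a zinc finger transcription factor known in oligodendrocytes for promoting their maturation against BMP signalling, in part through the inhibitory Smad gene Smad7.

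Zeb2 stood at 11.4, 9.52 and 7.995 FPKM in controls 1 to 3 and at 6.19, 3.89 and 5.81 FPKM in cKO 1 to 3 (limma adjusted p = 0.107, over the threshold of 0.05). Xist, the RNA that silences an X chromosome in female cells, was between 0.331 and 0.515 FPKM in the controls and between 142 and 147 FPKM in cKO, and the Y-linked gene Eif2s3y was at 35.8 ± 1.36 FPKM in the controls (SD, n = 3), against 0.0766 ± 0.0435 FPKM in cKO (SD, n = 3). The groups thus differ in sex as well as genotype, and the effects of the 2 cannot be told apart. The smallest steps between low values put the depth at 21.4 to 28.7 in units of 1e6 fragments, lowest in cKO 1 and highest in control 1. The library cKO 2 had the lowest Zeb2 value and the highest sum over 12 meningeal genes, and several genes are also given without it.

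The promoters of these genes were searched for the letters CACCT, or AGGTG on the other strand, the short core that Zeb factors bind. RefSeq (GRCm38.p6) gave start sites for 6 of the 8 members other than Mbp. The window ran from 250 to 36 bases before each start site. Mbp, whose cKO values were also all under the controls, was left out of the search. Windows are printed here from the other members with all cKO values under the controls (Cnp and Enpp6) and from the member with the smallest difference (Ugt8a). Matches are in capitals: Cnp at chr11:100574689-100574903 on the plus strand, Enpp6 at chr8:46986637-46986851 on the plus strand and Ugt8a at chr3:125938688-125938902 on the minus strand.
Cnp: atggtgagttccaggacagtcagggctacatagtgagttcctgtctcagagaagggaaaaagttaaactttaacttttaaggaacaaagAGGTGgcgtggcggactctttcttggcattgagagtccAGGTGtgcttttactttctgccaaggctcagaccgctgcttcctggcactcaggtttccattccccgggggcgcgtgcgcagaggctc
Enpp6: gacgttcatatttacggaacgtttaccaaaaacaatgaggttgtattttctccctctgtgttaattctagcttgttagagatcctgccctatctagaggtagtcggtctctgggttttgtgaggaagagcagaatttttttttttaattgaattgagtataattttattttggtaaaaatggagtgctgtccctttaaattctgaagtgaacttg
Ugt8a: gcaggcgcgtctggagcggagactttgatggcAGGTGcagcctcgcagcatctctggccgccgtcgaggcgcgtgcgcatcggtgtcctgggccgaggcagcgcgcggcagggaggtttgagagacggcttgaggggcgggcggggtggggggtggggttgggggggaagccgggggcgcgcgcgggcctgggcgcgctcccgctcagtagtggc
The Cnp window held 2 matches, beginning 161 and 123 bases before the start site, the Ugt8a window held 1, at 218 bases, and the Enpp6 window held none. These letters occurred in 41.6% of the 32851 promoter windows of the same length, so a match is common. Of the 9 windows of the 6 members searched, 5 held a match. The 6-letter form CACCTG or CAGGTG occurred in 15.2% of the 32851 windows. Among the members it occurred once each in the Cnp window, the Ugt8a window and 1 Mag window, where it overlaps a match of the shorter form.

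All 9 genes were above 0 in all 6 libraries, and 5 of the 9 (Cnp, Mbp, Tspan2, Ugt8a and Fa2h) reached 1 FPKM in each of them. Of all loci 54.6% did so, a similar share, and 16.6% were at 0 in all 6. Cnp and Mbp had the highest levels in the controls, 19.5 ± 1.46 and 17.6 ± 1.33 FPKM (SD, n = 3 each), above 78.8% and 77.0% of all loci. Control values of these 2 genes overlapped. Tspan2 followed at 5.66 ± 0.763 FPKM, Ugt8a at 3.57 ± 0.273 and Fa2h at 1.82 ± 0.153 FPKM (SD, n = 3), none of which overlapped its neighbour in that order. Cldn11 (1.04 ± 0.241 FPKM), Myrf (0.943 ± 0.0660) and Mag (0.927 ± 0.0642) lay together around 1 FPKM with overlapping values (SD, n = 3), above 42.9%, 42.3% and 42.2% of loci. Enpp6 was the lowest at 0.234 ± 0.0394 FPKM (SD, n = 3), above 34.5% of loci.

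**Figure D1:**
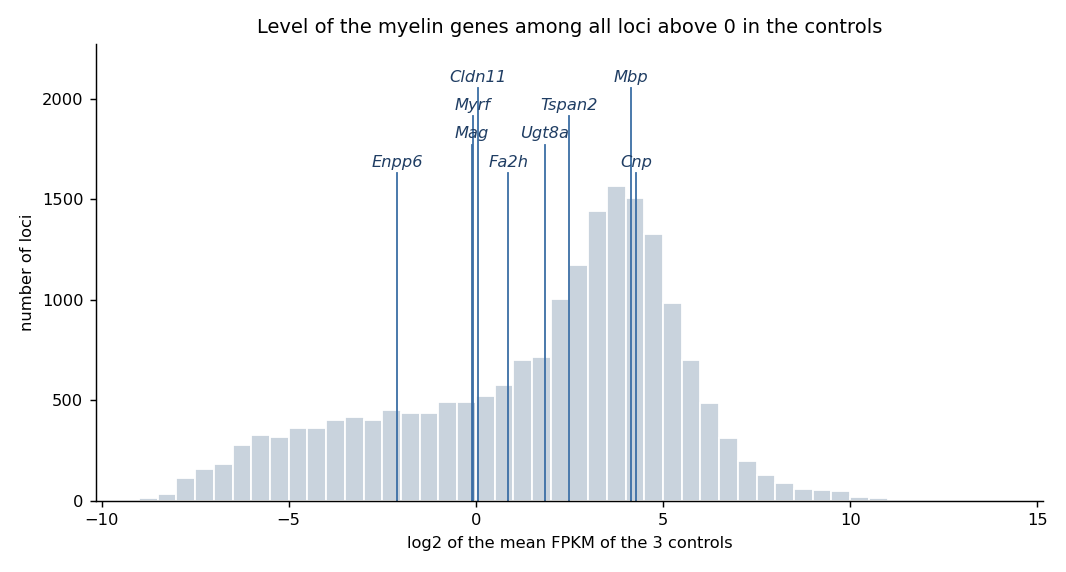
Histogram of the log2 mean FPKM of the 3 controls for the loci above 0 there, with a vertical line at the level of each of the 9 myelin genes. Cnp and Mbp stand at the right of the main peak, Cldn11, Myrf and Mag stand together near 1 FPKM (log2 of 0), and Enpp6 is the lowest at 0.234 FPKM.

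Other genes of late myelin were much lower or not seen. Opalin, a membrane protein of mature oligodendrocytes, and Klk6, a secreted protease of the same cells, were listed at 0 in all 6 libraries. Mobp, an abundant protein of compact myelin in adults, lay between 0.0141 and 0.0449 FPKM. By contrast Mog, a protein of the outermost myelin surface, was at 4.80 ± 0.595 FPKM in the controls, against 4.98 ± 0.695 FPKM in cKO (SD, n = 3 each), above Ugt8a and Fa2h. Genes overlapping Mog were not looked for, and which cells gave its value was not tested.

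Between the genotypes, 3 of the 9 genes had every cKO value under every control value (Mbp, Cnp and Enpp6), and none had every cKO value above. Among all 19852 loci above 0 in any library, 10.3% had every cKO value under the controls and 9.92% had every one above. No member passed the test: 0 of the 9 had an adjusted p of at most 0.05 by limma (Benjamini-Hochberg), where 0.573% of the 13612 loci tested passed. For the 4 members under the filter of 1 FPKM in 3 libraries the test came from a fit without that filter, in which 0.141% of loci passed. Before adjustment Mbp, Cnp and Enpp6 had a limma p under 0.05, as had 17.6% of the 13612 loci and 14.3% of all loci without the filter. The median log2 fold change of FPKM + 1 over the 9 members was -0.053, with 5 of 9 under 0, beside 0.0013 and 49.3% under 0 over all loci without the filter.

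**Figure D2:**
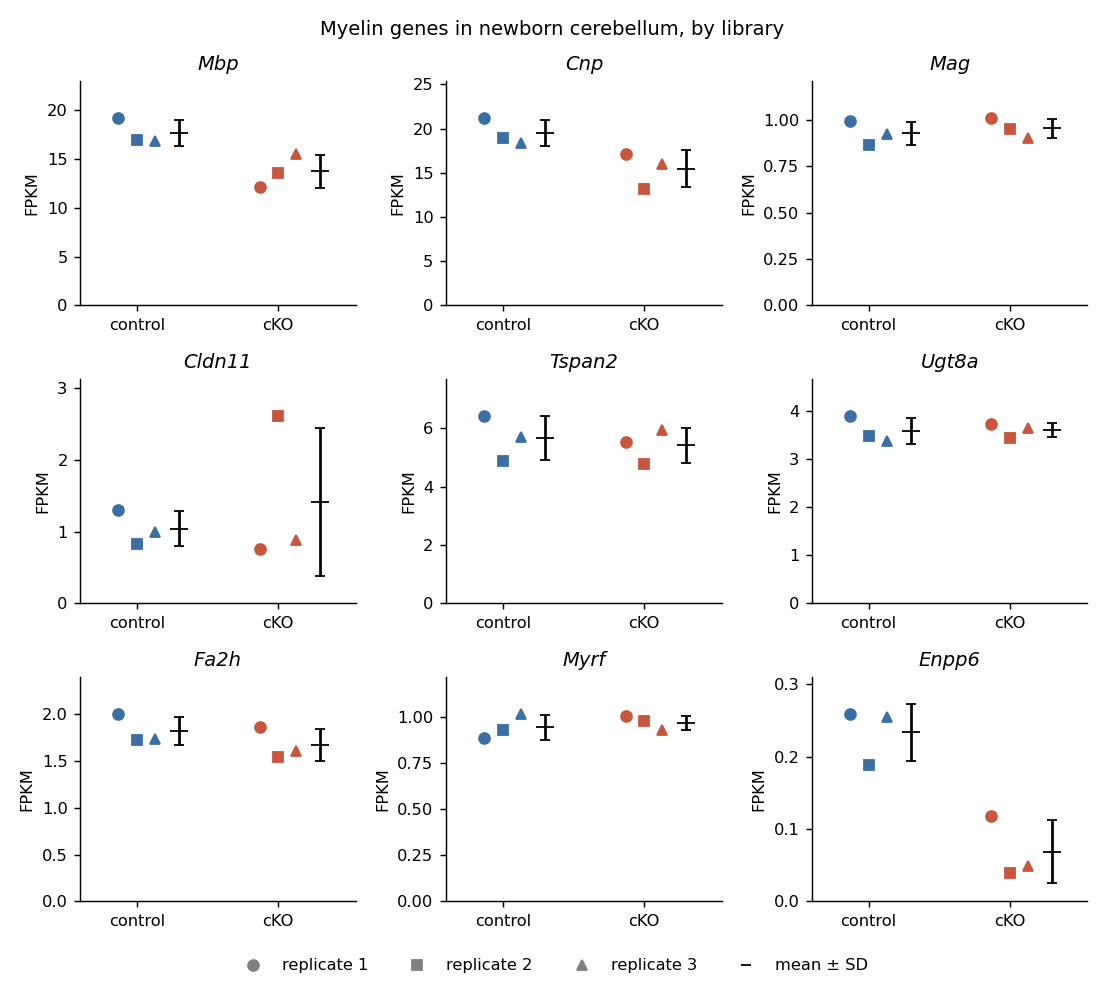
FPKM of each of the 9 genes in every library, from 0 upward, with the replicate number as the marker and the mean ± SD of the 3 libraries of a group in black. Only Mbp, Cnp and Enpp6 have all 3 cKO points under all 3 control points, and 1 cKO library alone is high for Cldn11.

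Mbp encodes myelin basic protein, which compacts the sheath from its cytoplasmic side (GRCm38 chromosome 18, 82475146 to 82585637, plus strand). Its values were 19.2, 16.9 and 16.8 FPKM in controls 1 to 3 and 12.2, 13.6 and 15.5 FPKM in cKO 1 to 3. Each cKO value was under each control value, with the gap between control 3 and cKO 3 the narrowest. The cKO mean of 13.8 ± 1.66 FPKM (SD, n = 3) was 77.9% of the control mean. The log2 fold change was -0.34 (SE 0.10, 95% interval -0.57 to -0.12), with a limma adjusted p of 0.154, and 0.0744 to 0.355 over the alternatives tried. The lowest, 0.0744, came with a covariate that set control 1 and cKO 3 apart from the other libraries. No sample label gives that grouping. The locus also holds golli transcripts, which other cells than oligodendrocytes make, and the table gives 1 value for all of them.

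Cnp encodes the phosphodiesterase of the non-compacted myelin layers (GRCm38 chromosome 11, 100574904 to 100591729, plus strand). It stood at 21.1, 18.9 and 18.4 FPKM in the controls, against 17.2, 13.1 and 16.03 FPKM in cKO 1 to 3. The cKO libraries were again all lower, cKO 2 the most. The cKO mean of 15.4 ± 2.08 FPKM (SD, n = 3) was 79.3% of the control mean. The log2 fold change was -0.32 (SE 0.10, 95% interval -0.57 to -0.08; limma adjusted p = 0.198, and 0.139 to 0.421 over the alternatives), and -0.22 without cKO 2. Dnajc7 lies on the opposite strand and overlaps the gene, and no source used here gives the strand setting. In whole tissue, the number of oligodendrocytes and the RNA of each cannot be told apart. Which cells the Cnp RNA came from was not tested.

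Enpp6 encodes a choline-specific phosphodiesterase and marks oligodendrocytes that have just begun to differentiate (GRCm38 chromosome 8, 46986887 to 47096762, plus strand). Its control values were 0.259, 0.189 and 0.255 FPKM and its cKO values 0.118, 0.0389 and 0.0486 FPKM. The groups did not overlap, and the control mean was 3.41 times the cKO mean of 0.0686 ± 0.0433 FPKM (SD, n = 3). On the log2 scale of FPKM + 1, which understates the change of so low a gene, the difference was -0.21 (SE 0.04, 95% interval -0.31 to -0.11). The limma adjusted p was 0.138, and 0.0853 to 0.360 over the alternatives. With a pseudocount of 0.1 the log2 difference was -1.01. The antisense genes Gm45600 and 4930579M01Rik overlap Enpp6 on the opposite strand, and their part in its values was not tested. Few fragments stand behind the Enpp6 values. With the longest annotated transcript (4970 bases) they came to about 37, 25 and 35 fragments in the controls and 13, 5 and 6 in cKO, and with the shortest (1390 bases) to between 1.32 and 10.3 in any library. Exact Poisson 95% intervals on the first set, which cover counting error only, ran from 16.2 to 36.9 fragments in control 2, the lowest control, and from 6.92 to 22.2 in cKO 1, the highest cKO library, so these neighbours overlap.

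The other myelin proteins did not differ beyond the spread between libraries. Tspan2, a tetraspanin of the sheath (GRCm38 chromosome 3, 102734529 to 102801513, plus strand, with the antisense gene Tspan2os overlapping it), was at 6.40, 4.88 and 5.71 FPKM in the controls, against 5.53, 4.77 and 5.94 FPKM in cKO, and the groups overlapped (log2 fold change -0.05, SE 0.11, 95% interval -0.31 to 0.21, limma adjusted p = 0.841, and 0.02 without cKO 2). Mag, the myelin-associated glycoprotein that faces the axon (GRCm38 chromosome 7, 30899176 to 30914873, minus strand), was at 0.993, 0.864 and 0.925 FPKM in the controls, against 1.01, 0.951 and 0.905 FPKM in cKO. These values overlapped, and the log2 fold change was 0.02 (SE 0.05, 95% interval -0.10 to 0.15). With a pseudocount of 0.1 the Mag difference was 0.04, with a wider SE of 0.14. For both genes the sign depended on the libraries included.

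Cldn11, the claudin of myelin tight junctions (GRCm38 chromosome 3, 31149920 to 31164324, plus strand), stood at 1.30, 0.829 and 0.994 FPKM in the controls, against 0.761, 2.60 and 0.887 FPKM in cKO 1 to 3. The single high value was cKO 2, and both other cKO values lay within or under the control range. The log2 fold change was 0.17 (SE 0.28, 95% interval -0.52 to 0.86) with all libraries and -0.16 without cKO 2. Cldn11 is also made by fibroblasts of the meninges. All 12 meningeal fibroblast markers were measured, and they summed to 35.9 to 68.0 FPKM in the controls, against 46.8 to 108 FPKM in cKO. Of the 11 markers tested 0 passed by limma and 10 had positive log2 fold changes, where 53% of the loci tested were under 0. Islr went the other way (log2 fold change -0.48), with every cKO value under the controls. The sum was highest in cKO 2, where the proteoglycan gene Dcn reached 10.7 FPKM against 0.0417 to 3.41 FPKM in the controls. The order was not the same throughout, since cKO 1 had the second highest sum, 75.5 FPKM, and the lowest Cldn11 value. The part of meningeal tissue in the Cldn11 values was not tested.

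**Figure D3:**
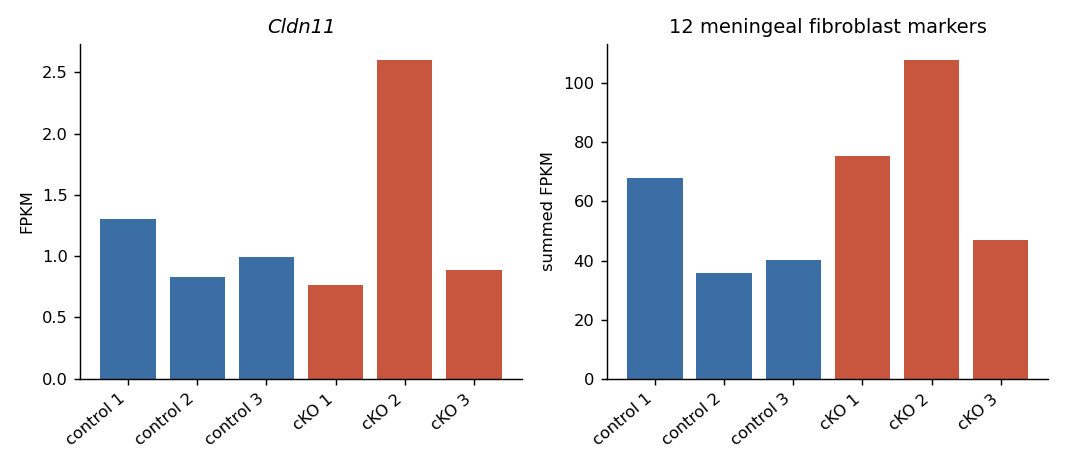
Bars from 0 show, for each library, the FPKM of Cldn11 (left) and the summed FPKM of 12 meningeal fibroblast markers (right), controls in blue and cKO in red. Both are highest in cKO 2, at 2.60 and 108 FPKM, while cKO 1 is low for Cldn11 and high for the markers.

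The 2 enzymes of myelin lipids did not differ beyond the spread between libraries. Ugt8a, which makes galactosylceramide, the main glycolipid of the sheath (GRCm38 chromosome 3, 125865271 to 125938619, minus strand), was at 3.88, 3.48 and 3.36 FPKM in the controls, against 3.72, 3.44 and 3.64 FPKM in cKO. The groups overlapped fully, with a log2 fold change of 0.01 (SE 0.07, 95% interval -0.16 to 0.18). The lower bound of that interval is nearer to 0 than the Mbp estimate given above, though the difference between the 2 genes was not tested. Fa2h, which hydroxylates the fatty acids of those lipids (GRCm38 chromosome 8, 111345135 to 111393824, minus strand), was at 1.997, 1.72 and 1.74 FPKM in the controls, against 1.87, 1.54 and 1.61 FPKM in cKO, also with overlap (log2 fold change -0.08, SE 0.08, 95% interval -0.28 to 0.12, limma adjusted p = 0.672, and -0.04 without cKO 2). Among 11 further genes of myelin lipids, 10 were tested and 0 passed by limma in either direction. The median log2 fold change was 0.07 beside -0.0095 for all loci tested. Of the 10, 1 had an unadjusted limma p under 0.05, against 17.6% of the loci tested. That 1 was Sgms1, a sphingomyelin synthase, at 6.08 ± 0.144 FPKM in the controls, against 6.95 ± 0.269 FPKM in cKO (SD, n = 3 each).

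Myrf, the membrane-bound transcription factor that switches on myelin genes (GRCm38 chromosome 19, 10208272 to 10240748, minus strand), stood at 0.884, 0.931 and 1.01 FPKM in the controls, against 1.00, 0.977 and 0.927 FPKM in cKO. Every value lay within 0.884 to 1.01 FPKM, and the groups overlapped. Its log2 fold change was 0.02 (SE 0.05, 95% interval -0.10 to 0.14, limma adjusted p = 0.897). With a pseudocount of 0.1 it was 0.04, with a wider SE of 0.13.

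**Figure D4:**
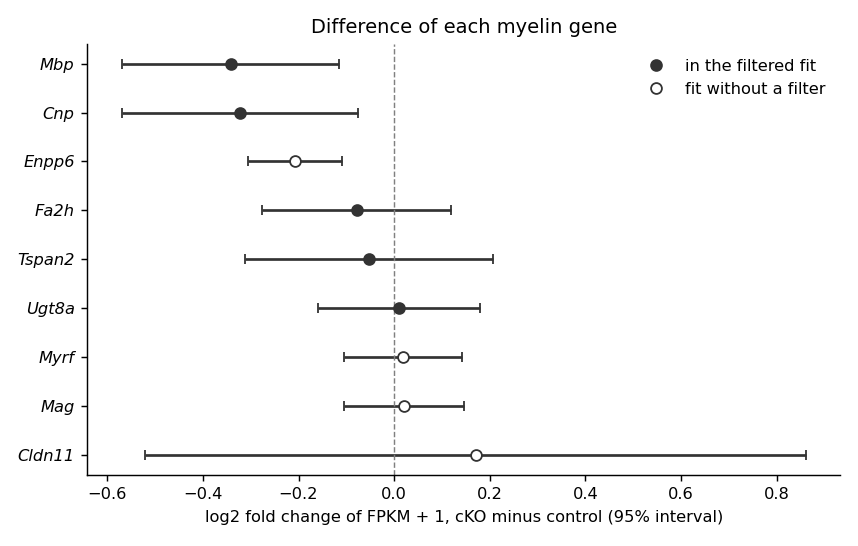
Log2 fold change of FPKM + 1, cKO minus control, of each of the 9 genes with its 95% limma interval. Filled points come from the fit over the filtered loci and open points from the fit without a filter. The intervals of Mbp, Cnp and Enpp6 lie under 0 before adjustment for the number of loci, and Cldn11 has the widest interval.

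Some members shared their highest or lowest library, and others did not. Control 1 was the highest library for 6 of the 9 genes (Mbp, Cnp, Tspan2, Ugt8a, Fa2h and Enpp6), against 21.5% of the loci tested, and cKO 2 was the lowest for 4 (Cnp, Tspan2, Fa2h and Enpp6), against 17.6%. The other members differed: control 1 was the lowest library for Myrf, cKO 1 the highest for Mag and cKO 2 the highest for Cldn11. Among the 5 members in the filtered fit, Pearson r of log2 values over the 6 libraries ranged from 0.12 (Mbp with Ugt8a) to 0.84 (Cnp with Fa2h). The mean standardised pattern of these 5 genes was 1.36 in control 1, -1.15 in cKO 2 and between -0.13 and -0.0037 in the other 4 libraries. The 5 named genes most like that pattern over the 6 libraries were Bhlhe22, G2e3, Smim15, C1qtnf6 and Elf1 (r from 0.986 to 0.997), none of them a myelin gene. With 6 points shared by all loci, r is given as a description.

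Other proteins of the sheath, taken as a list, mostly had lower values in cKO, without passing the test. Of 21 matched genes 14 were tested, 11 had negative log2 fold changes (53% of the loci tested did) and 3 positive ones, the median was -0.22, and 0 passed by limma. In 9 of the 14 every cKO value was under every control value, against 13.6% of the loci tested, and 7 had an unadjusted p under 0.05 with a negative sign, against 9.79%. Bcas1, a protein of early myelinating cells, had 10.7 ± 1.09 FPKM in controls beside 7.56 ± 0.630 FPKM with the cKO (SD, n = 3 each; log2 fold change -0.45), and Omg, a glycoprotein of oligodendrocytes and neurons, at 7.12 ± 0.157 and 4.90 ± 0.953 FPKM (log2 fold change -0.47, or -0.33 without cKO 2). Several genes of this list, among them Gpm6b, Cd9 and Nfasc, are also expressed by neurons or astroglia. Which cells gave the values of the list was not tested.

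Genes of the earlier steps of the lineage had values that differed in both directions. Of 10 tested genes of newly formed oligodendrocytes 0 passed by limma. An unadjusted limma p under 0.05 was seen for 3 (all lower), against 9.79% of the loci tested. Bcas1, already counted among the sheath proteins above, was among the 3. Of the 10, 7 were under 0, against 53% of the loci tested, and the median was -0.14. Gpr17, a receptor of cells at that step, was at 4.61, 4.14 and 5.13 FPKM in the controls, against 2.48, 1.34 and 2.48 FPKM in cKO, with no overlap (log2 fold change -0.88, SE 0.17, limma adjusted p = 0.0771, and -0.69 without cKO 2). Nkx2-2, a homeobox gene of the same step, was at 5.05 ± 0.494 and 2.94 ± 1.29 FPKM (SD, n = 3 each; log2 fold change -0.68, or -0.37 without cKO 2).

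Of 13 precursor genes 1 rose and 0 fell by limma, where 0.242% of the loci tested rose and 0.331% fell. Olig1 rose from 70.4, 62.4 and 85.1 FPKM in the controls to 155, 146 and 140 FPKM in the 3 cKO libraries (log2 fold change 1.02, limma adjusted p = 0.0231). It lost the call without control 1 (adjusted p = 0.0931), cKO 1 (0.110), cKO 2 (0.0906) or cKO 3 (0.0567). Olig2 was at 20.97 ± 4.24 and 33.3 ± 4.10 FPKM (SD, n = 3 each; adjusted p = 0.103) without passing. Pdgfra, the growth factor receptor of precursors, went the other way at 17.3 ± 1.18 and 13.97 ± 0.0447 FPKM (SD, n = 3 each; limma log2 fold change -0.29, adjusted p = 0.0899), as did Gjc3 (log2 fold change -0.79) and C1ql1 (-1.03), none of which passed. Sox10, which marks the whole lineage, was at 5.10, 5.54 and 5.33 FPKM in the controls, against 5.51, 2.37 and 3.97 FPKM in cKO 1 to 3. The Sox10 groups overlapped, with a log2 fold change of -0.40 (SE 0.22), or -0.15 without cKO 2.

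**Figure D5:**
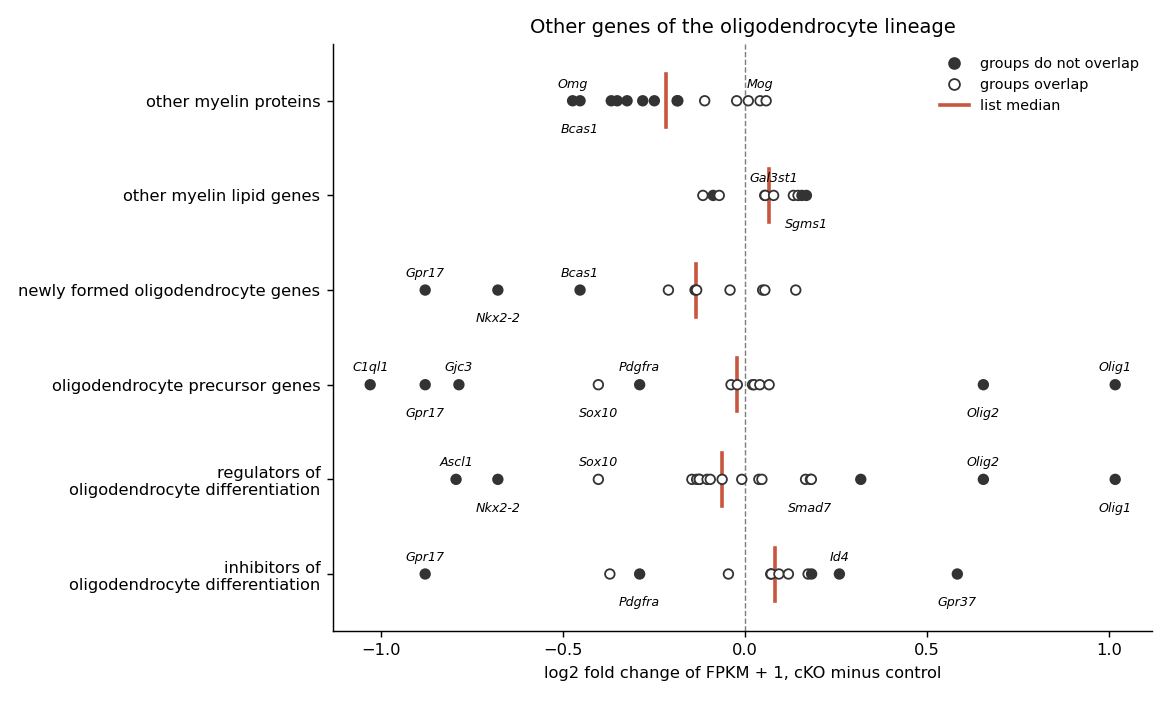
Log2 fold change of FPKM + 1, cKO minus control, of the tested genes of 6 lists of the oligodendrocyte lineage, 1 point a gene. Filled points are genes whose control and cKO values do not overlap, open points overlap, and red bars are list medians, from -0.22 (other myelin proteins) to 0.08 (inhibitors of differentiation).

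Among 19 regulators that favour differentiation, 1 rose (Olig1, also a precursor gene) and 0 fell by limma, where 0.242% of the loci tested rose and 0.331% fell. The median log2 fold change was -0.06. Every cKO value was above the controls for 4 of the 19 and under them for 3, against 10.3% and 13.6% of the loci tested. Smad7 was at 5.88, 4.76 and 5.57 FPKM in the controls, against 6.43, 6.01 and 6.26 FPKM in cKO, each cKO value above each control value, without passing (log2 fold change 0.18, SE 0.08, limma adjusted p = 0.315). Of 12 tested genes that hold differentiation back 0 passed by limma, and the median was 0.08. Of these, 8 were above 0 and 4 under 0, where 53% of the loci tested were under 0. An unadjusted limma p under 0.05 was seen for 3 higher and 2 lower genes (7.82% and 9.79% of the loci tested). The 2 lower were Gpr17 and Pdgfra, which the precursor list also holds. Of the 3 higher, Gpr37, a receptor, was at 3.45 ± 0.244 and 5.69 ± 0.912 FPKM, and Id4, an inhibitor of basic helix-loop-helix factors, at 44.5 ± 3.50 and 53.5 ± 4.18 FPKM (SD, n = 3 each).

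Markers of other cells were compared in the same way. Of 10 microglia markers 8 were tested, and all 8 had every cKO value above every control value, against 10.3% of the loci tested. The 10 summed to 34.1 to 35.0 FPKM in the controls, against 47.4 to 51.3 FPKM in cKO, and 1 of them, the receptor Csf1r, rose. The 12 astrocyte and Bergmann glia markers summed to 2297 to 2335 FPKM in the controls, against 2095 to 2262 FPKM in cKO, and 1 of them, S100b, fell. Most of that sum was Fabp7, a fatty acid binding protein, at 1577 ± 50.0 FPKM in the controls beside 1581 ± 29.1 FPKM with the cKO (SD, n = 3 each). Of the 12, 5 had every cKO value under the controls, against 13.6% of the loci tested. Among them were the water channel Aqp4 (log2 fold change -0.90) and the glutamate transporter Slc1a3 (-0.81, or -0.46 without cKO 2). Every cKO value was above the controls for 2, Aldoc (0.68) and Gja1 (0.52), against 10.3% of the loci tested. Apart from S100b none of the 12 passed by limma. With 1 library left out, Csf1r lost its call in each of the 6 fits (limma adjusted p = 0.0616 to 0.194) and S100b in 5 of them, all but the one without cKO 3 (0.0293 to 0.119). The sums of the 10 neuron markers overlapped, at 2723 to 2879 and 2691 to 3092 FPKM. Of these 10, 1 (Calb1) was all above and 1 (Neurod1) all under the controls, near the 10.3% and 13.6% of the loci tested. The 11 Schwann cell genes, among them Sox2 and Ngfr, which other cells express too, had overlapping sums of 70.6 to 79.4 and 65.5 to 82.45 FPKM. Of the 4 tested, 2 (Pmp22 and Ngfr) had every cKO value under the controls, against 13.6% of the loci tested. The part of these cells in the values of the myelin genes was not tested.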

How the data were processed

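RNA of 6 libraries of newborn cerebellum (3 control, 3 cKO) was compared. CASAVA, TopHat, Cufflinks and the build mm10 are named in the submitters' processing notes. The authors' deposited values were read as FPKM from Cufflinks, the locus names and the values, since no label names the unit. For tool versions, annotation and strand, nothing was given in the sources used here. Groups and numbers follow the titles (the description of cKO 1 carries the number 3).

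Values were taken as log2(FPKM + 1). The 13612 loci that reached 1 FPKM in 3 or more libraries were fitted with limma 3.58.1 (R 4.3.3, trend, two-sided) and Benjamini-Hochberg adjustment over all of them at 0.05. Members under that filter come from the same fit on the 19852 loci above 0 in any library. The script was tested on simulated data. Depth was estimated from loci with 1 GENCODE M21 transcript: FPKM under 0.1 times length gathers at whole multiples of 1 fragment, and 73.0 to 89.3% of values up to 2 fragments lay within 15% of a whole number.

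The members and lists were chosen with earlier results of these data known. Named genes are the members, Zeb2 and sex-linked checks, defining genes of each list, the 3 or fewer genes of lowest p per list and the 5 genes most like the members. Opalin, Klk6, Dcn, C1ql1, Id4, Aqp4, Slc1a3 and Fabp7 were named after their values were seen. Some genes of the lists are not reported by name here. Settings varied were the block, deposit, processing set, libraries, pseudocount, filter, scaling, small-RNA loci, weights and threshold. The processing set is a grouping of libraries that no sample label gives.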

Additional observations from a re-analysis of the deposited data

How the results depend on the processing

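No myelin gene was called under any of the 22 alternatives tried, and the median over the 9 members stayed between -0.10 and -0.0027 under the 16 that give one. Mbp (-0.46 to -0.26), Cnp (-0.40 to -0.22), Fa2h (-0.13 to -0.018) and Enpp6 (-1.01 to -0.18) kept a negative log2 fold change under all 18 alternatives run for each. The sign turned with 1 library left out for Cldn11 (-0.16 to 0.36), Tspan2 (-0.14 to 0.026), Mag (-0.0030 to 0.045), Ugt8a (-0.023 to 0.059) and Myrf (-0.0027 to 0.046). Quantile normalization gave -0.013 for Mag and -0.014 for Myrf, and the first deposit alone -0.029 for Ugt8a. The cause was not tested.

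Of the 9 genes, 8 reached 0.1 FPKM and 2 reached 5 FPKM in all libraries, and the count at 1 FPKM was 5 with any library left out. The 78 loci called over the table became 22 with the deposit as a covariate, 30 at a mean of at least 5 FPKM, 28 without a filter, 30 in the second processing set only, 325 with small-RNA loci left out, 409 at an adjusted p of 0.1, 20 at 0.01 and 21 to 55 with 1 library left out. The processing set put control 1 and cKO 3 in a first set and the other libraries in the second. No sample label gives this grouping. With the replicate block, 15 loci and 0 myelin genes were called. Libraries of the same number share only that number (r of their deviations from the group means -0.027, 0.037 and 0.049 over loci, and control 1 correlated more with cKO 3, at 0.066, than with cKO 1). Depth limits Enpp6 most, with few fragments in each library.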
